A study of Mus musculus with 4 samples.

Results

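The protein-synthesis genes described here are the translation initiation factors, the translation elongation factors with the enzymes that modify them, and the aminoacyl-tRNA synthetases. They were taken from the hippocampus table by symbol: symbols beginning with Eif and a digit from 1 to 6, symbols beginning with Eef and the digit 1 or 2, and the synthetase symbols ending in ars or ars2. The rule found 101 of the 19230 genes in the table, made up of 55 initiation factor genes, 12 genes of elongation factors and their modifiers, and 34 synthetase genes, and it used no expression value. Expression was measured by RNA-seq of hippocampus, the brain structure needed for forming new memories, with mRNA captured on oligo(dT) beads. All mice were C57BL/6 and 12 months old. The LA group (2 libraries, replicates 1 and 2) had received licochalcone A, a chalcone from licorice root, for 30 days, and the Ctrl group (2 libraries, replicates 2 and 3) carries a cell-culture term as its treatment label, so what the control mice received is not given in the sources used here. Dose, route, vehicle and sex are not given either, and whether each library is from its own mouse is not stated. Every p-value therefore rests only on the spread between these libraries, pooled in part over genes of similar level.

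Translation starts when initiation factors bring the initiator tRNA and the mRNA cap to the small ribosomal subunit. eIF2 carries the initiator tRNA and is recharged with GTP by eIF2B; 4 kinases phosphorylate eIF2 under stress, which lowers general translation while the transcription factor ATF4 is made. eIF4E binds the cap, eIF4G is the scaffold, eIF4A the helicase, and the eIF4E-binding proteins hold eIF4E back until mTOR phosphorylates them. Elongation factor eEF1A delivers charged tRNAs, the eEF1B subunits recharge eEF1A, and eEF2 moves the ribosome along. Synthetases load each amino acid onto its tRNA, mostly with separate genes for the cytosol and for mitochondria. In neurons these steps also run in dendrites, where local protein synthesis is known for its part in long-lasting synaptic change.

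The values are FPKM, fragments of a gene scaled by transcript length and library size, which allows levels of different genes to be compared per length. Library values are given throughout in the order Ctrl replicate 2, Ctrl replicate 3, LA replicate 1 and LA replicate 2. The FPKM of all genes summed to 386945, 394912, 388932 and 441948, so that LA replicate 2 stood above the others, and the number of reads behind a value is not known. Neuronal mRNA was abundant in every library, with Snap25, a synaptic vesicle fusion protein, at 884 to 1117 FPKM. Cell type markers did not sit evenly: all 5 oligodendrocyte markers had higher values in both LA libraries (median log2 fold change 1.00), all 5 leptomeningeal markers had lower ones (median -0.85, with 2 past the threshold). All 3 erythrocyte markers were higher in both LA libraries (median 0.54), all 4 microglia markers were above 0 (median 0.38) and all 3 endothelial markers below 0 (median -0.51), with none past the threshold. Ttr, made by choroid plexus, was at 7360 FPKM in Ctrl replicate 3 against 12.2 to 75.2 in the others. The part of these shifts in the values below was not tested, and in bulk tissue fewer cells of a type cannot be told apart from less RNA per cell.

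The 101 genes together made up 1.56%, 1.54%, 1.59% and 1.58% of the summed FPKM, a share that was nearly level over the 4 libraries. Their sum went from 6049, 6065 and 6175 FPKM to 7003 FPKM in LA replicate 2. Such sums rest on abundant genes. Cytosolic ribosomal protein genes alone summed to 23125 FPKM in LA replicate 1 and 36006 FPKM in LA replicate 2. The median deviation of all genes tested was -0.05 in log2 in LA replicate 2, so the typical gene was not raised there. Their mean levels ran from 0.09 to 1493 FPKM, as the plot of mean levels by role shows. Eef1a1, the general eEF1A, was the most abundant with 1415, 1407, 1553 and 1599 FPKM. It was followed by Eif4a2, the eIF4A paralogue that is abundant in brain, at a mean of 431.8 FPKM, and by Eef1a2, the eEF1A of neurons and muscle, at 398.8 FPKM. Eif4a2 and Eef1a2 overlapped in their library values and had no order beyond that spread. Eef2 followed with a mean of 307.4 FPKM, Eif5a with 244.0 FPKM and Eif1 with 207.5 FPKM. At the other end, Eif4e1b, a cap-binding paralogue known from oocytes, was at 0.20, 0.16, 0.05 and 0.26 FPKM. Eef1akmt3, a lysine methyltransferase of eEF1A, had 0.18 FPKM in each Ctrl library and was the only gene of the rule listed at 0, in both LA libraries. Both were below the mean of 1 FPKM asked of a gene for testing, which left 99.

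**Figure D1:**
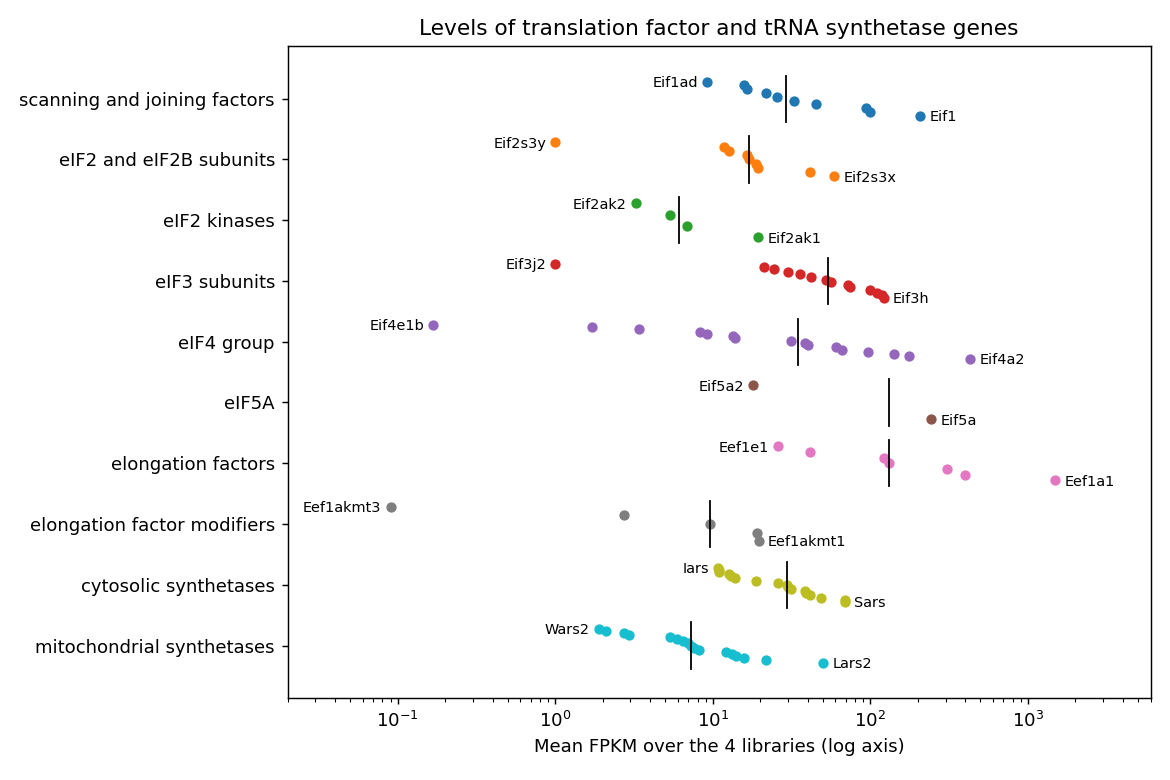
Mean FPKM over the 4 libraries of each of the 101 genes (log axis), one point a gene, by role; vertical lines mark each group's median. Eef1a1 is the highest at 1493 FPKM, followed by Eif4a2 at 431.8 FPKM, and mitochondrial synthetases (median 7.23 FPKM) lie below cytosolic ones (median 29.6 FPKM).

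None of the 99 genes passed the threshold between LA and Ctrl (adjusted p under 0.05 over all 13518 genes tested, limma). The background was low as well: 19 of the 13518 genes passed, 0.141%, all of them lower in LA. At an unadjusted p under 0.05 there were 5 of the 99 (5.05%), against 7.80% of all genes; 3 were higher in LA (3.03%, against 3.74%) and 2 lower (2.02%, against 4.06%). Both LA libraries lay above both Ctrl libraries for 21 of the 99 genes (21.2%, against 17.6% of all genes), and both lay below for 17 (17.2%, against 21%). The log2 fold change, taken on log2(FPKM + 1), was above 0 for 56 of 99 (56.6%, against 47.6%). Its median was 0.02 beside -0.01 over all genes, and fell to -0.04 without LA replicate 2. These shares are near the background, and the smallest adjusted p among the 99 genes was 0.551. The 40 tested genes for which the library values are not written out had log2 fold changes from -0.21 to 0.28, 21 above 0 and 19 below, and adjusted p from 0.788 to 0.999.

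**Figure D2:**
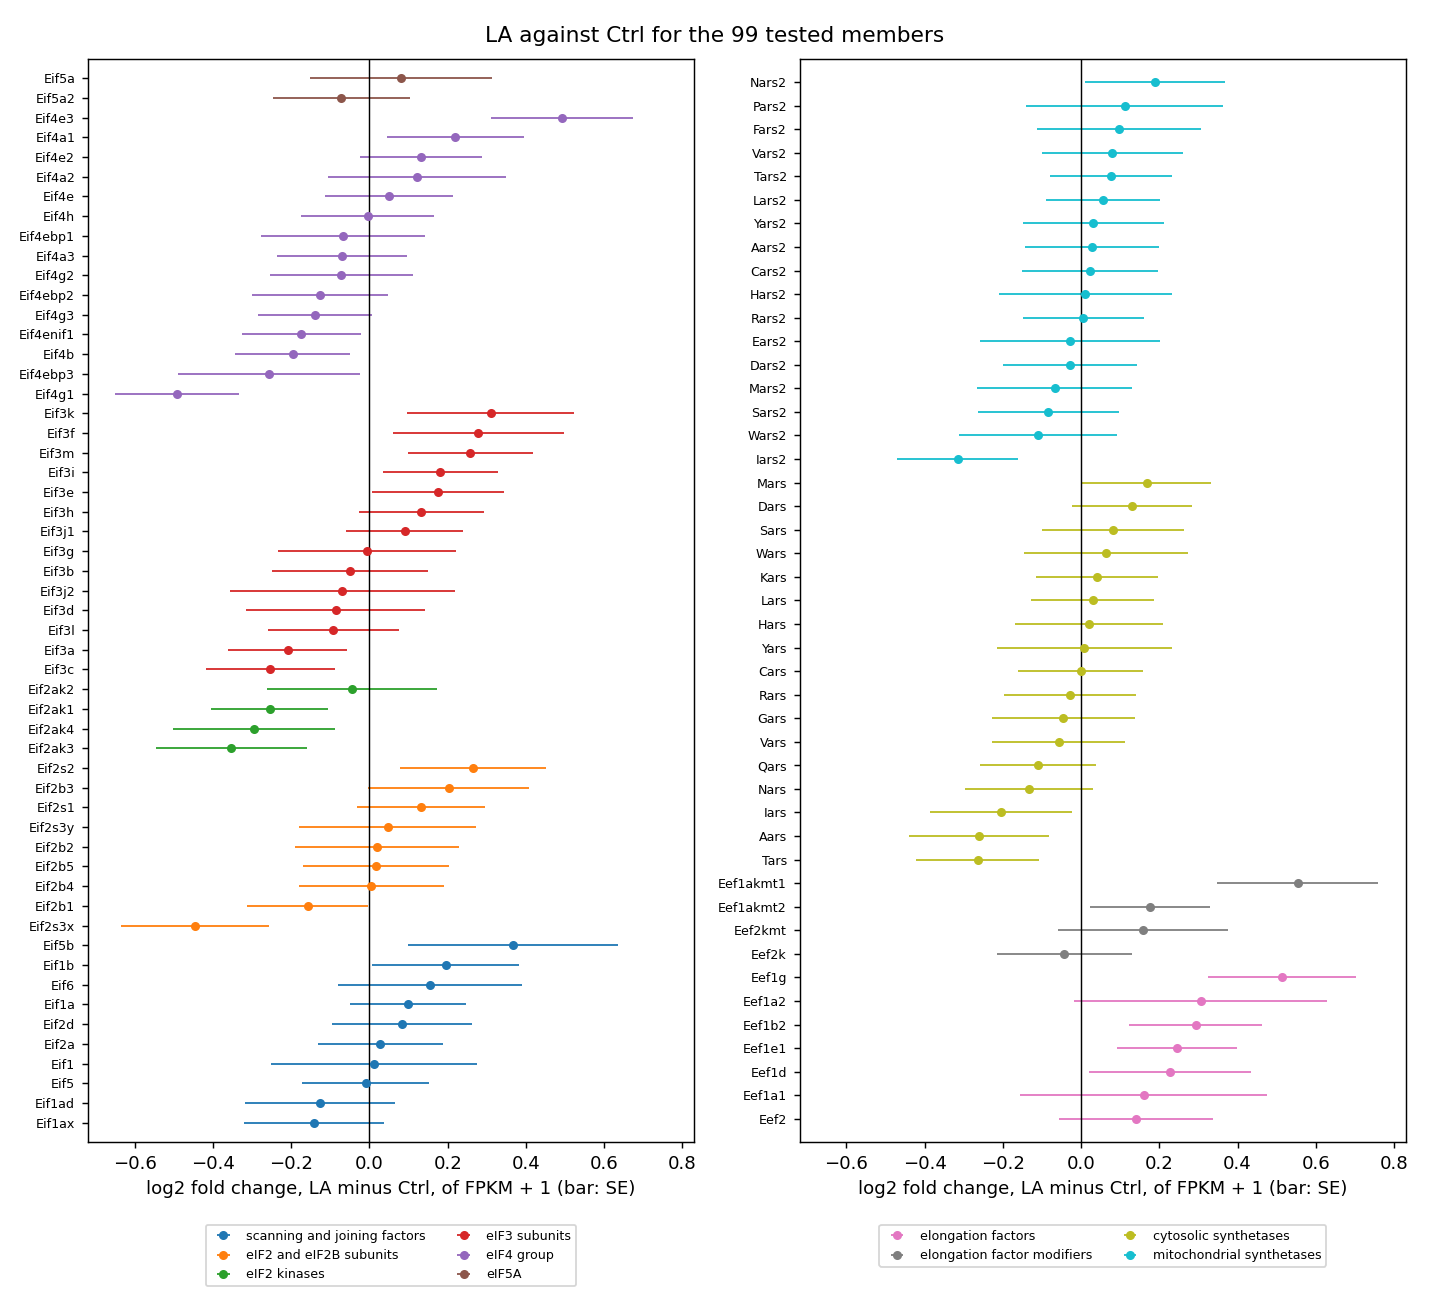
Log2 fold change of FPKM + 1, LA minus Ctrl, for each of the 99 tested genes, coloured by role; bars are the limma standard error. The points lie between -0.49 (Eif4g1) and 0.55 (Eef1akmt1), and no gene passed the threshold.

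The 5 genes at an unadjusted p under 0.05 came from different steps. Eif4g1 (GRCm38 chr16:20672720-20692883), the main eIF4G scaffold, had 47.3, 47.4, 36.7 and 30.4 FPKM, or 47.4 ± 0.0919 in Ctrl against 33.6 ± 4.46 in LA (SD, n = 2). The groups did not overlap, and the Ctrl libraries were nearly equal while the LA libraries differed from each other. Its log2 fold change was -0.49 (SE 0.16, adjusted p = 0.551). Its paralogue Eif4g3 had 39.3, 40.9, 34.8 and 37.9 FPKM, so that Eif4g1 was the higher of the pair in 3 libraries and the lower in LA replicate 2, at a ratio of 0.803.

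Eif2s3x (chrX:94188709-94212651), the X-linked gene of eIF2 gamma, had 64.0, 71.9, 57.8 and 42.4 FPKM, again with LA below Ctrl and lowest in LA replicate 2 (log2 fold change -0.45, SE 0.19, adjusted p = 0.640). The value was -0.23 when LA replicate 2 was left out. Of its 50-base words 36.2% also occur in transcripts of other genes, so reads may have been divided between them. Such sharing reached 20% in 16 of the 101 genes; besides those named with their share in the text these were Eif1, Eif2s2, Eif3e, Eif3h, Eif3j1, Eif4a3, Eef2kmt and Aars, at 22% to 54.8%. Its Y-linked copy Eif2s3y was found at 1.12, 0.82, 1.19 and 0.88 FPKM, with overlapping groups and 0.0114 to 0.0207 of the level of Eif2s3x. Among other Y-linked genes, Uty was at 1.08 to 1.47 FPKM and Kdm5d at 0.60 to 0.92 FPKM, whereas Ddx3y was at 0 to 0.01 FPKM.

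The other 3 genes at this level were higher in LA. Eif4e3, a cap-binding paralogue of eIF4E, had 7.48, 5.93, 9.67 and 9.89 FPKM (log2 fold change 0.49, SE 0.18, adjusted p = 0.609), with LA libraries close together and above Ctrl. Eef1akmt1, a lysine methyltransferase of eEF1A, had 14.6, 16.5, 19.2 and 28.2 FPKM (log2 fold change 0.55, SE 0.21, adjusted p = 0.609), with LA replicate 2 far above LA replicate 1. Without LA replicate 1 its adjusted p was 0.0692, the lowest any of these genes reached under any setting tried, and without LA replicate 2 its log2 fold change was 0.29. Eef1g, described with the elongation factors, was the remaining gene. The loci of Eif4e3 and Eef1akmt1 in GRCm38 are chr6:99621879-99692873 and chr14:57549595-57571582.

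All 7 genes with elongation factor symbols had log2 fold changes above 0, against 47.6% of all genes. Their median was 0.25, and 0.26 without Eef1e1, which binds the synthetase complex. In 5 of the 7 both LA libraries lay above both Ctrl libraries, against 17.6% of all genes. None of the 7 passed the threshold. After quantile normalization Eef1a1 turned to -0.15 and the median was 0.19. Eef1g, the gamma subunit of eEF1B, had 117, 97.9, 138 and 170 FPKM (log2 fold change 0.51, SE 0.19, adjusted p = 0.609). The LA libraries were above Ctrl, LA replicate 2 the highest, and 64.3% of the gene's 50-base words are shared with 5 other genes, mostly the locus Gm4366. Eef1b2, the exchange subunit eEF1B alpha, had 108, 112, 124 and 147 FPKM (log2 fold change 0.29, adjusted p = 0.731). Eef1e1, known also as AIMP3, had 24.7, 22.7, 30.1 and 26.5 FPKM (0.25, adjusted p = 0.747). In both genes the LA libraries lay above the Ctrl libraries. Eef2 had 297, 287, 307 and 338 FPKM (0.14, adjusted p = 0.898) and Eef1d, eEF1B delta, had 37.0, 38.8, 36.3 and 54.5 FPKM with overlapping groups. Leaving out LA replicate 1 gave a group median of 0.41, and leaving out LA replicate 2 one of 0.14.

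The paralogues of eEF1A behaved differently between libraries. Eef1a1 rested in narrow groups, 1411 ± 5.52 FPKM in Ctrl and 1576 ± 32.4 FPKM in LA (SD, n = 2), with a log2 fold change of 0.16 (SE 0.32, adjusted p = 0.942); 60.6% of its words are shared with 21 other genes. Eef1a2, which shares no word with another gene, had 402, 298, 318 and 577 FPKM, and its groups overlapped (0.31, SE 0.32, adjusted p = 0.856). Its highest value was in LA replicate 2 and its lowest in Ctrl replicate 3, and without LA replicate 2 the log2 fold change was -0.12. The ratio of Eef1a2 to Eef1a1 was 0.284, 0.212, 0.205 and 0.361.

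Among the enzymes that modify elongation factors, Eef1akmt2 had 17.0, 18.5, 21.1 and 19.3 FPKM (0.18, adjusted p = 0.825) with LA above Ctrl, and -0.01 after the correction for length and GC content. Eef2kmt, which methylates eEF2, had 2.16, 2.91, 2.63 and 3.24 FPKM (0.16, adjusted p = 0.894), and the groups overlapped. Eef2k, the kinase that inhibits eEF2, had 9.33, 10.2, 10.2 and 8.69 FPKM, also with overlapping groups, and lay 28.2 to 38.9 times below Eef2.

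Many elongation factor mRNAs and some initiation factor mRNAs are known as terminal oligopyrimidine (TOP) transcripts, whose first bases are a run of C and T through which mTOR signalling controls their translation. Of the genes here, 10 were listed as such: Eef1a1, Eef1b2, Eef1d, Eef1g, Eef2, Eif2s3x, Eif3e, Eif3f, Eif3h and Eif4b. The log2 fold change was above 0 in 8 and below 0 in 2, Eif2s3x and Eif4b, with a median of 0.17 and no gene past the threshold. Cytosolic ribosomal protein genes, the largest class of TOP transcripts, had values above 0 in 78 of the 80 tested, against 47.6% of all genes. Their median was 0.55 and none passed the threshold. At an unadjusted limma p under 0.05 there were 29 of the 80, against 7.8% of all genes. These genes moved together, with LA replicate 2 above LA replicate 1 in 78 of the 80, so the 29 are not separate results. The part of transcript length in this was not tested. The median deviations of the ribosomal protein genes from the mean of the libraries were -0.31, -0.23, -0.02 and 0.54 in log2. LA replicate 2 was the farthest from the others. Both LA libraries lay above both Ctrl libraries in 68 of the 80 genes, against 17.6% of all genes. The TOP genes here deviated by -0.11, -0.08, 0.01 and 0.12. The 30 bases around the annotated start (15 before it and 15 from it on, RefSeq, GRCm38.p6) follow. They are given for 2 genes that lay on opposite sides of 0, for Eif3f, and for Eef2, in which no run was found. Capitals mark the longest run of at least 6 pyrimidines within 10 bases of the start. The marking stops at that limit, and in Eif2s3x and Eif3f the run continues in lower case.
Eef1a1: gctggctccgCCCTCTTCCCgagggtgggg
Eif2s3x: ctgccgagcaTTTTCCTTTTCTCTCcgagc
Eif3f: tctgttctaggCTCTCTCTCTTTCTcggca
Eef2: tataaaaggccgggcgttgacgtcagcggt

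These windows are at chr9:78481710-78481739 (minus strand), chrX:94212637-94212666 (minus strand), chr7:108934400-108934429 (plus strand) and chr10:81176616-81176645 (plus strand). Promoter sequence was at hand for 75 of the 101 genes, and a run of this kind was present in 18 of them (24.0%), against 23.0% of 27025 genes. Of the 10 listed TOP genes 6 had a window and 3 held a run, those shown. The annotated start can lie some bases from the one used in hippocampus, and a match is a description of the letters only. A missing run, as in the Eef2 window, therefore does not show that the mRNA lacks one. Eef1a1 and Eif2s3x, whose windows both hold a run, had log2 fold changes of 0.16 and -0.45. Both runs begin 5 bases before the annotated start, and whether they are part of the mRNA was not tested.

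Scanning and subunit joining factors, grouped here with Eif1ad, Eif2a, Eif2d and the anti-association factor Eif6, had 7 of 10 values above 0. Only Eif1a, at 20.3, 21.9, 22.2 and 23.1 FPKM, had groups that did not overlap. Both its LA libraries lay above both Ctrl libraries, which held for 17.6% of all genes, while in 21% both lay below. Eif1, which guards start codon choice, had 188, 220, 159 and 263 FPKM, the LA libraries lying outside the Ctrl libraries on both sides (0.01, adjusted p = 0.996). Its close paralogue Eif1b had 91.3, 94.4, 91.8 and 123 FPKM (0.19, adjusted p = 0.843). Eif5b, the GTPase that joins the ribosomal subunits, had 12.7, 14.0, 12.8 and 23.7 FPKM (0.37, SE 0.27, adjusted p = 0.788), with only LA replicate 2 away from the others. Eif1ax, the X-linked eIF1A gene, had 43.1, 51.5, 48.0 and 37.8 FPKM (-0.14, adjusted p = 0.885). The sign of Eif1b and Eif5b rested on LA replicate 2, since without it they were at -0.02 and -0.05; that of Eif1ax did too, at 0.03 without it.

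Subunits of eIF2 and eIF2B had 7 of 9 values above 0, with a median of 0.02 that ran from -0.19 without LA replicate 2 to 0.22 without LA replicate 1. Eif2s2, eIF2 beta, had 37.2, 37.4, 38.2 and 53.1 FPKM (0.26, SE 0.19, adjusted p = 0.777), where LA replicate 1 exceeded Ctrl by less than 1 FPKM. Eif2b1, eIF2B alpha, had 13.6, 13.3, 11.7 and 12.3 FPKM (-0.16, adjusted p = 0.845), with LA slightly below Ctrl. The eIF2 subunits were not level with one another: Eif2s3x was 2.71 to 4.63 times and Eif2s2 2.02 to 3.39 times as high as Eif2s1, eIF2 alpha, per length. The 5 eIF2B subunits lay closer together, at means of 11.7 to 19.4 FPKM.

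All 4 eIF2 kinases had values below 0, as did 7086 of the 13518 genes tested. The kinases stayed below 0 after median-ratio scaling and quantile normalization. None of the 4 passed the threshold (median -0.27, limma adjusted p 0.723 to 0.981). Eif2ak1, the heme-regulated kinase HRI, had 22.02, 20.4, 18.1 and 17.1 FPKM (-0.26, SE 0.15). Eif2ak3, the endoplasmic reticulum kinase PERK, had 5.77, 6.50, 5.13 and 4.08 FPKM (-0.35, SE 0.19). Eif2ak4, the amino acid sensor GCN2, had 7.79, 7.39, 7.17 and 5.00 FPKM (-0.29, SE 0.21). In these 3 kinases both LA libraries were below both Ctrl libraries, which held for 21% of all genes. LA replicate 2 was the lowest library in each of the 3. Eif2ak2, the RNA-activated kinase PKR, had 2.96, 3.63, 3.68 and 2.68 FPKM with overlapping groups (-0.05), and was at 0.07 without Ctrl replicate 3 and 0.13 without LA replicate 2. The median of the kinases moved to -0.39 when LA replicate 1 was left out and to -0.14 when LA replicate 2 was.

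Targets of ATF4, the transcription factor downstream of these kinases, did not go one way. Of 17 tested, Atf4 among them, 7 were above 0 and 10 below, with a median of -0.06 and none past the threshold (2 at an unadjusted p under 0.05). Nupr1, a stress-induced chromatin protein, had 12.1, 10.5, 5.19 and 7.88 FPKM (-0.73, SE 0.22, adjusted p = 0.499). Ppp1r15a, the phosphatase subunit GADD34 that reverses eIF2 phosphorylation, had 6.85, 12.4, 5.00 and 5.71 FPKM (-0.69, SE 0.27, adjusted p = 0.609). Both were lower in LA, in Ppp1r15a with a wide gap between the Ctrl libraries. Slc7a5, an amino acid transporter, had 11.3, 12.2, 8.92 and 8.79 FPKM (-0.37, SE 0.16, adjusted p = 0.651).

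The eIF3 complex, the large scaffold on the small ribosomal subunit, was split, with 7 of 14 subunits above 0 and 7 below (median 0.04, and 0.18 without LA replicate 1). Eif3h had 114, 119, 125 and 130 FPKM (0.13, adjusted p = 0.879) and Eif3e had 102, 120, 126 and 124 FPKM (0.18, adjusted p = 0.843), both with LA above Ctrl. Eif3m had 62.7, 73.1, 78.7 and 83.6 FPKM (0.26, SE 0.16, adjusted p = 0.743), and 40.0% of its words are shared. Eif3k had 93.5, 101, 99.2 and 146 FPKM (0.31, SE 0.21, adjusted p = 0.772), with LA replicate 1 inside the Ctrl range. Eif3c, one of the large core subunits, went the other way with 62.2, 59.7, 45.8 and 56.7 FPKM (-0.25, SE 0.16, adjusted p = 0.759). The near-identical copies Eif3j1 and Eif3j2 had means of 21.1 and 1.00 FPKM; 91.8% of the words of Eif3j2 are shared, so its values of 1.13, 0.91, 1.48 and 0.49 FPKM are uncertain.

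The eIF4 group, taken as all tested genes with an Eif4 symbol, had 5 of 15 values above 0 and 10 below. The 10 include the eIF4E-binding proteins, which hold eIF4E back, and also Eif4enif1 and Eif4a3. The median of the group was -0.07, and it was -0.14 without Ctrl replicate 2 and -0.01 without Ctrl replicate 3. The helicase gene Eif4a2 had 412, 413, 500 and 402 FPKM (0.12, adjusted p = 0.941), where LA replicate 1 alone was high, and the value turned to -0.04 without it and to -0.11 after quantile normalization. Eif4a1 had 155, 170, 182 and 197 FPKM (0.22, SE 0.17, adjusted p = 0.809), LA above Ctrl; 65.3% of its words are shared with 8 genes, mostly a processed copy. The level of Eif4a2 was 2.66, 2.43, 2.75 and 2.04 times that of Eif4a1. Eif4b, the partner of the helicase, had 62.4, 66.7, 56.7 and 55.8 FPKM (-0.20, SE 0.15, adjusted p = 0.797), LA below Ctrl.

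The eIF4E-binding proteins did not separate the groups. Eif4ebp2, the form of the brain, was the most abundant with 9.98, 9.22, 9.51 and 7.96 FPKM (-0.13, adjusted p = 0.896). Eif4ebp1 had 3.03, 4.02, 3.03 and 3.57 FPKM (-0.07, adjusted p = 0.963) and Eif4ebp3 had 1.82, 2.06, 1.85 and 1.12 FPKM (-0.26, adjusted p = 0.833). Of the words of Eif4ebp3, 65.5% are shared with another gene. Groups overlapped in all 3, and Eif4ebp1 turned to 0.09 without Ctrl replicate 3. Eif4e itself stood 6.27 to 7.76 times above Eif4ebp2 with 62.6, 67.2, 73.8 and 61.1 FPKM. Mtor, the kinase of these proteins, had 12.5, 11.6, 10.2 and 8.35 FPKM (-0.34, SE 0.17, adjusted p = 0.704), LA below Ctrl. Of 15 translation control kinases and partners tested, Mtor included, 9 were above 0 and 6 below, and none passed.

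The eIF5A paralogues, which help ribosomes past difficult stretches, showed opposite gaps inside LA. Eif5a had 230, 239, 205 and 301 FPKM (0.08, adjusted p = 0.960) and Eif5a2 had 17.8, 19.0, 19.8 and 15.3 FPKM (-0.07, adjusted p = 0.952). LA replicate 2 was the highest library for Eif5a and the lowest for Eif5a2, and the ratio between them was 13.0, 12.6, 10.4 and 19.7.

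The 34 synthetase genes were nearly balanced. Of the 17 cytosolic ones 8 were above 0 and 9 below (median -0.0013), of the 17 mitochondrial ones 11 above and 6 below (median 0.02), and none passed the threshold or an unadjusted p of 0.05. Cytosolic Tars, for threonine, had 14.3, 13.5, 11.8 and 11.1 FPKM (-0.26, SE 0.16, adjusted p = 0.732), LA below Ctrl. Aars, for alanine, had 44.3, 40.1, 30.4 and 40.4 FPKM (-0.26, SE 0.18, adjusted p = 0.772), where LA replicate 2 was level with Ctrl. Iars, for isoleucine, had 12.4, 10.7, 11.01 and 8.89 FPKM (-0.20, adjusted p = 0.829). The most abundant synthetase genes, Sars for serine with 71.7, 61.6, 62.2 and 79.6 FPKM and Nars for asparagine with 69.5, 73.7, 59.3 and 71.7 FPKM, had overlapping groups and did not differ from each other beyond their spread.

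Mitochondrial Iars2 had the smallest p of the synthetases, with 15.2, 16.3, 12.8 and 12.0 FPKM (-0.32, SE 0.16, adjusted p = 0.690), LA below Ctrl, and 36.6% of its words are shared with the overlapping gene Rab3gap2. Nars2, for asparagine, had 5.61, 5.34, 6.80 and 5.99 FPKM (0.19, adjusted p = 0.841), LA above Ctrl. Wars2, for tryptophan and the least abundant, had 1.96, 2.04, 1.88 and 1.68 FPKM (-0.11, adjusted p = 0.938). Fars2, for phenylalanine, had 18.2, 23.8, 18.9 and 26.3 FPKM (0.10, adjusted p = 0.947), with 1 high library in each group, and was at -0.13 without LA replicate 2 and -0.09 without Ctrl replicate 2.

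For 14 amino acids both a cytosolic and a mitochondrial gene were present, and the plot of these pairs shows their levels. The cytosolic gene was higher in all 4 libraries in 11 pairs, by a ratio of means from 1.64 for Rars to Rars2 up to 15.8 for Wars to Wars2. The mitochondrial gene was higher in all 4 libraries in 2 pairs. Lars2, for leucine, had 50.7, 48.0, 52.4 and 50.2 FPKM against 10.7, 11.03, 11.2 and 11.1 FPKM of Lars, a ratio of 0.212 to 0.230 of Lars to Lars2. It was by far the most abundant mitochondrial synthetase gene, the next being Fars2 at 21.8 FPKM, and its groups overlapped. Iars stood at 0.660 to 0.857 of Iars2. The ratio of Tars to Tars2 was 1.21 and 1.15 in Ctrl and 0.922 and 0.912 in LA, a pair whose order differed between the groups in these libraries; the ratio itself was not tested.

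**Figure D3:**
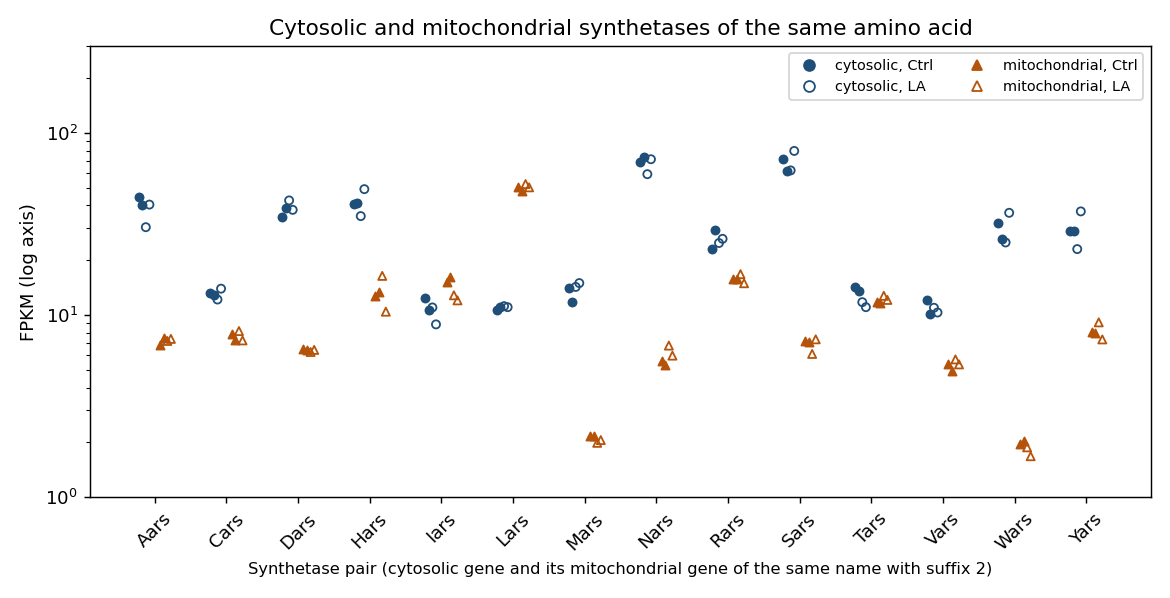
FPKM (log axis) of cytosolic (circles) and mitochondrial (triangles) synthetase genes of the same amino acid, one symbol a library, filled for Ctrl and open for LA. The mitochondrial symbols lie above the cytosolic ones for Iars and Lars only, and for Tars they meet.

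ATF4 acts on cytosolic synthetase genes through elements that pair an ATF4 site with a C/EBP site, known to read TGATGNAA. These letters were searched on both strands of the 250 bases before and 50 bases after each annotated start. The word holds purines, so it cannot lie inside a pyrimidine run. The word was found in 5 of 10 cytosolic synthetase genes with a window (50%), in 0 of 14 mitochondrial ones and in 4.51% of 27025 genes. With Eef2k and Eif2s3x, it was present in 7 of the 75 genes with a window (9.33%). It is shown for the cytosolic synthetases, with 8 bases on each side and the word in capitals; each is written on the strand that reads TGATGNAA.
Aars: gagcgctcTGATGAAAagtgaccc
Aars, the other word: ggctcggcTGATGCAAtgctcaag
Gars: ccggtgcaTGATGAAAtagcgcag
Iars: tctggaggTGATGCAAtactgaca
Tars: taaccagcTGATGCAAcgggactc
Yars: agctcagcTGATGCAAcccgacgg

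The windows lie in GRCm38.p6 at chr8:111033843-111033866 and chr8:111033722-111033745 for Aars, chr6:55037963-55037986 for Gars, chr13:49682129-49682152 for Iars, chr15:11399658-11399681 for Tars and chr4:129189898-129189921 for Yars. The word read along the gene's own strand in Yars and along the opposite strand in the others. Of these 5 genes, Aars, Iars and Tars are described above with values below 0. Gars, for glycine, had 48.9, 49.3, 40.8 and 55.4 FPKM (-0.05) and Yars, for tyrosine, had 29.0, 29.1, 23.0 and 37.1 FPKM (0.01), each with LA libraries on both sides of Ctrl. The word says nothing on whether ATF4 was bound there in hippocampus.

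Genes that work beside these but carry other names were also split. Of 11 synthetases and partners with other symbols, such as Eprs and Farsb, 7 were above 0 and 4 below. Of 8 release and recycling factors 6 were above 0, with Denr at 44.4, 42.2, 45.6 and 72.2 FPKM, LA replicate 2 standing apart (0.40, SE 0.22, adjusted p = 0.723). Of 10 mitochondrial translation factors 6 were above 0, and Mrrf, the ribosome recycling factor of mitochondria, had 6.72, 7.65, 10.8 and 9.77 FPKM (0.46, SE 0.17, adjusted p = 0.609), LA above Ctrl. None of these genes passed the threshold, and Mrrf was the 1 among them at an unadjusted p under 0.05.

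The gap between the LA libraries was larger than the difference between group means in most genes. A gap between single libraries varies more than a difference between means, so such an excess is not by itself a trait of LA. For the 99 genes the median size of the gap between the LA libraries was 0.264 in log2, between the Ctrl libraries 0.0923, and between group means 0.112. The LA gap exceeded the group difference in 66 of 99 (66.7%, against 63.5% of all genes). LA replicate 2 was above LA replicate 1 by over 0.5 in 17 genes (17.2%, against 7.37% of all genes) and below by over 0.5 in 2, Hars2 and Eif3j2 (2.02%, against 9.88%). No Ctrl gap was over 0.5, against 6.65% of all genes. Eef1a2 (gap 0.86), Eif5b (0.84), Eif1 (0.72) and Eif6 (0.71), an anti-association factor with 24.6, 23.2, 20.6 and 34.4 FPKM, had the widest gaps upward. Hars2 had 12.7, 13.3, 16.4 and 10.4 FPKM, and in Yars and Eif3g LA replicate 2 was the higher by 0.66 and 0.68. By role, as the plot of library deviations shows, LA replicate 2 had the highest median deviation in 7 of the 10 role groups and the lowest in the eIF2 kinases, the eIF4 group and the mitochondrial synthetases.

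**Figure D4:**
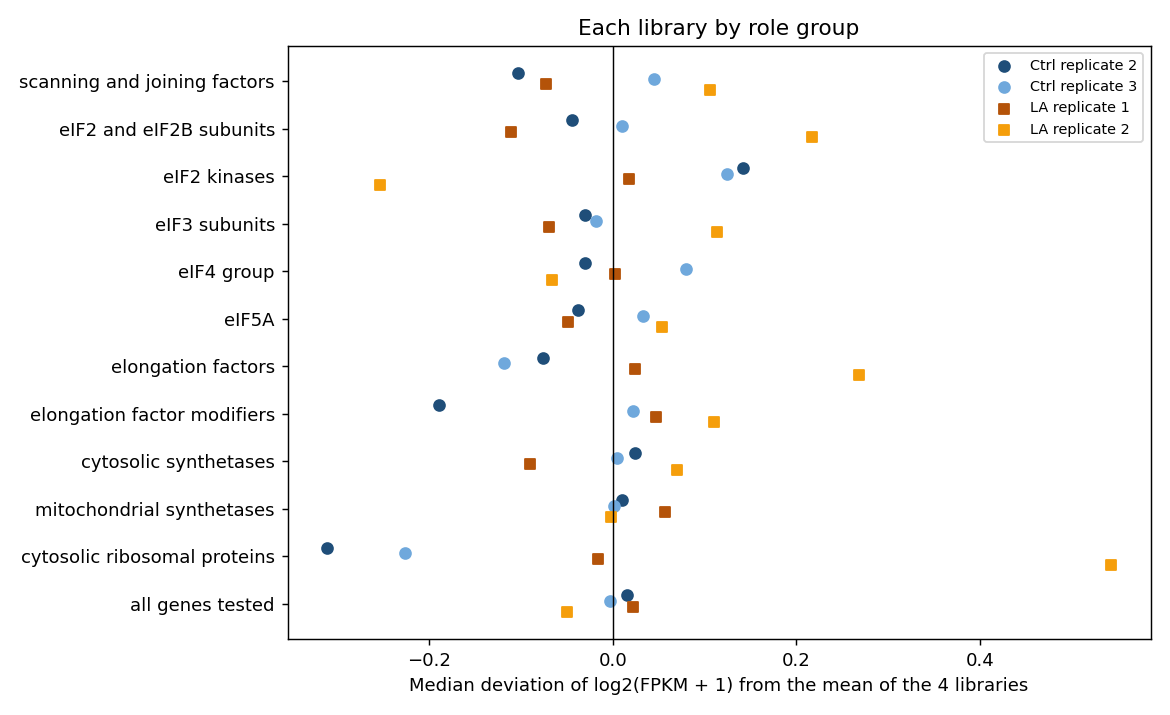
Median deviation of log2(FPKM + 1) from the mean of the 4 libraries, by role group and library, beside cytosolic ribosomal proteins and all genes tested. LA replicate 2 (yellow squares) lies farthest from 0 in most groups, at 0.54 for ribosomal proteins and -0.25 for the eIF2 kinases, while all genes lie between -0.05 and 0.02.

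The gap in LA moved with the length and the base composition of the transcript. Across the 99 genes, Spearman's rho of the LA gap (replicate 2 minus replicate 1) with transcript length was -0.39, and -0.43 over 12928 genes with a length. With GC content it was 0.46 and 0.37. The points share the same 4 libraries and are genes, not replicates. The median gap was 0.25 in 27 genes under 2000 bases, 0.07 in 48 genes of 2000 to 4000 bases and -0.15 in 24 longer genes. The gap between Ctrl libraries (replicate 3 minus replicate 2) had a rho of -0.09 with length and -0.26 with GC content, against -0.06 and -0.15 over all genes. The difference between groups had a rho of -0.43 with length in these genes, against -0.24 over all genes. The median log2 fold change was 0.08 in genes under 2000 bases, 0.04 at 2000 to 4000 bases and -0.12 in longer genes. Over all genes these medians were 0.09, -0.02 and -0.06. Single long genes differed. Eif4g1 (5638 bases), Eif2ak4 (5298 bases), Eif2ak3 (4513 bases) and Eif2ak1 (4325 bases) were lower in both LA libraries. Eif2ak2 (4313 bases) had overlapping groups and a log2 fold change of -0.05. Eif5b (7797 bases) had a log2 fold change of 0.37 and the LA gap of 0.84. After a correction of each library for length and GC content, the median of the eIF2 kinases was -0.21, that of the elongation factors 0.25 and the value of Eif4g1 -0.40; the part of length in the group differences beyond this was not tested.

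**Figure D5:**
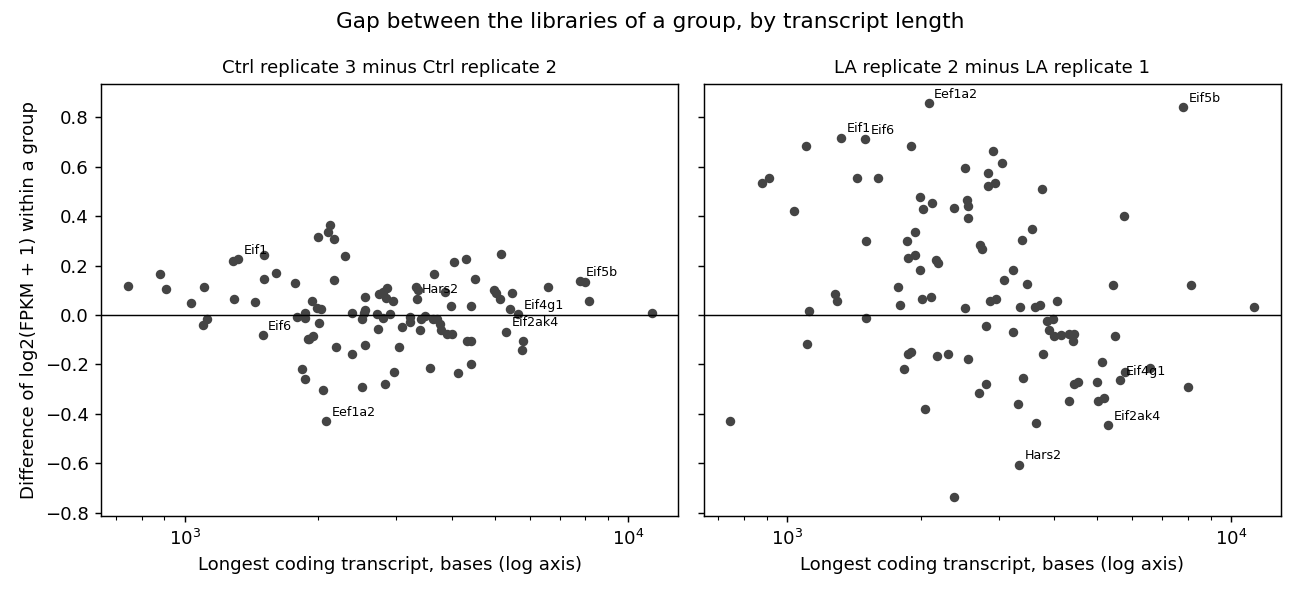
Difference of log2(FPKM + 1) between the 2 libraries of a group against the length of the longest coding transcript in bases (log axis), one point for each of the 99 genes, Ctrl on the left and LA on the right. In LA the points fall with length, from a median of 0.25 under 2000 bases to -0.15 at 4000 bases or more, and in Ctrl they stay within 0.5 of 0.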

How the data were processed

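The deposited table holds 1 FPKM column for each library, as the authors made it, with no pooling. For these samples the processing notes list Cufflinks, TopHat2 and the build GRCm38, with no version or gene annotation. FPKM written with 2 decimals keep no read counts, so no count test was run. After a filter at a mean of 1 FPKM, log2(FPKM + 1) was fitted by limma 3.58.1 (R 4.3.3; lmFit, then eBayes with a variance trend) for 2 LA against 2 Ctrl libraries, two-sided, with Benjamini-Hochberg adjustment over 13518 genes and a threshold of 0.05. With 2 against 2, an exact permutation test of a single gene cannot reach this threshold. The limma fit weighs each gene's own variance (2 degrees of freedom) with that of genes of similar level (5.37 prior degrees of freedom). A gene with close libraries, such as Eef1a1, can therefore carry a wide SE. In 10 simulations on 13518 genes with 200 changed, this procedure recovered 39.9% of log2 changes of 1 and 96.2% of changes of 2. Of the calls, 4.07% were false. Whether these rates hold for the 4 libraries was not tested. Over all genes tested, the median size of the gap was 0.246 in log2 between the LA libraries and 0.141 between the Ctrl libraries. The 99 genes had log2 fold changes from -0.49 to 0.55, and recovery of changes of that size was not tested. The members and lists were chosen with earlier results of these data known. Genes described library by library were, within each role, the 3 of smallest p and the 2 of highest mean, the Eef1a1 and Eif2s3x pairs, the eIF2 kinases, the eIF4E-binding proteins and genes listed at 0, with up to 3 of smallest p from each other list; Eif1a, Eif2s1, Eif4g3, Eif4e, Eif6, Hars2, Eif3j1, Eif3j2, Lars, Eef1d, Eef2, Eef2k, Gars, Yars and Eif4e1b were added after their values were seen. Transcript lengths, GC content and words of 50 bases shared between genes came from GENCODE M21 (GRCm38), and loci and start windows from RefSeq (GRCm38.p6), in which all 101 genes were found, Mars under the name Mars1. Alternatives were median-ratio scaling, quantile normalization, a filter at 5 FPKM or none, a pseudocount of 0.5 or 0.1, robust estimation, a fit with no variance trend, leaving out each library, and, both chosen after seeing the data, a correction for length and GC content and the elongation factors without Eef1e1.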

Additional observations from a re-analysis of the deposited data

How the results depend on the processing

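No gene of the rule passed the threshold under any setting tried, with 0 to 22 of them at an unadjusted p under 0.05; the highest number came without LA replicate 1, when 21.4% of all genes were at that level. The 19 genes called in all became 0 with no filter (1333 of 19080 at an unadjusted p under 0.05), 40 with robust estimation, 38 with the length and GC correction, and 2 to 227 when a library was left out. Of 579 values of named genes under the alternatives, 552 kept direction and side of the threshold and 27 changed sign. Quantile normalization turned Eef1a1 to -0.15, Eif1 to -0.12, Eif4a2 to -0.11, Eif5a to -0.12 and the median of the eIF5A genes to -0.077. The length and GC correction turned Eef1akmt2 to -0.0147, Eif1 to -0.0807 and Eif2s3y to -0.10. The causes were not tested.

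With 1 library left out, medians ran from -0.0437 to 0.0463 for all members, -0.0932 to 0.0463 for cytosolic and -0.0116 to 0.0831 for mitochondrial synthetases, -0.19 to 0.22 for eIF2 and eIF2B, 0.0047 to 0.18 for eIF3, -0.14 to -0.0056 for the eIF4 group, 0.14 to 0.41 for elongation factors and -0.0565 to 0.0176 for all genes. Single genes that changed sign ran from -0.12 to 0.73 (Eef1a2), -0.35 to 0.37 (Eif1), -0.31 to 0.0258 (Eif1ax), -0.0164 to 0.41 (Eif1b), -0.22 to 0.13 (Eif2ak2), -0.0633 to 0.16 (Eif2s3y), -0.0363 to 0.28 (Eif4a2), -0.23 to 0.0907 (Eif4ebp1), -0.20 to 0.36 (Eif5a), -0.25 to 0.10 (Eif5a2), -0.0543 to 0.79 (Eif5b), -0.13 to 0.32 (Fars2), -0.27 to 0.0020 (Nars) and -0.0938 to 0.26 (Sars). A lone library in a group was assumed to vary like the other group. No paired analysis was possible because the groups share 1 replicate number. With 2 libraries a group and no read counts, differences of the size of the gap between the LA libraries could not be told from that spread.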
